A study of Mus musculus with 12 samples.

Results

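The clustered protocadherins are the cadherin-like surface proteins encoded by the alpha, beta and gamma gene clusters. Their 58 genes were chosen by symbol (Pcdha, Pcdhac, Pcdhb, Pcdhga, Pcdhgb or Pcdhgc followed by a number) and each had 1 row in the deposited table, of 30399 rows for 23256 genes. The alpha cluster gave 14 genes, the beta cluster 22 and the gamma cluster 22. Within these, 12 were ordinary alpha genes, 12 were gamma A, 7 were gamma B and 5 were the C-type genes Pcdhac1, Pcdhac2, Pcdhgc3, Pcdhgc4 and Pcdhgc5.

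The RNA came from the paraventricular nucleus of the hypothalamus (PVN) of male mice aged 18 to 20 weeks. The animals had developed from C57/Bl6:129S6/SvEvTac hybrid zygotes and were carried by CD1 surrogate dams. In the miR group (replicates 1 to 6), the zygotes had received a mixture of 9 microRNA mimics in phosphate-buffered saline, each at 0.11 ng/uL and together at 1 ng/uL. The mimics were miR-698, miR-204, miR-29c, miR-532-3p, miR-30c, miR-375, miR-30a, miR-193-5p and miR-32. In the PBS group (replicates 7 to 12), zygotes received the saline alone, so injection, embryo transfer and hybrid background were common to both groups. Each of the 12 libraries was made from the PVN of 1 animal, and litters are not named in the labels. The mimics were given at the zygote stage and the RNA was taken from adults, and microRNA levels in the adult tissue were not analysed here.

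In textbook knowledge, neurons display combinations of clustered protocadherins that bind like combinations on other membranes, which lets branches of 1 neuron recognise and avoid each other. Every alpha and gamma protein is made from its own variable first exon, which has its own promoter and encodes the extracellular domain, joined to constant exons that encode a cytoplasmic tail common to the cluster. Beta genes have a single exon and no common tail. Ordinary members are chosen stochastically by single neurons, through CTCF, cohesin and DNA methylation at their promoters, whereas C-type promoters are used more constitutively. A tissue sample gives the sum over all its cells, in which fewer cells expressing a gene and less RNA per cell cannot be told apart.

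Depth was 22.8 to 45.1 M reads per library, with a mean of 30.2 ± 8.46 M in miR and 32.0 ± 3.56 M in PBS (SD, n = 6 each). The 5 PVN neuron markers Oxt, Avp, Crh, Sim1 and Otp all reached 1 RPKM in the mean (RPKM is the number of reads per kilobase of transcript, scaled to library size), with summed levels of 1833 to 4988 RPKM in miR and 2026 to 5616 in PBS. The summed levels of 5 general neuronal markers also overlapped, at 1010 to 1145 and 973 to 1163 RPKM. Those of 5 astrocyte markers were 799 to 940 and 677 to 854 RPKM, those of 5 oligodendrocyte markers 481 to 790 and 320 to 1278, and those of 5 microglial markers 64.8 to 74.3 and 56.9 to 73.7. Endothelial sums were 19.2 to 27.6 and 23.5 to 30.7 RPKM, choroid plexus sums 7.63 to 9.55 and 7.13 to 10.2, and meningeal fibroblast sums 5.21 to 7.23 and 5.82 to 9.24. No marker of these 8 lists was at 0 in the mean. Only 3 of 5 choroid plexus markers and 2 of 5 meningeal fibroblast markers reached 1 RPKM, the lowest being Kcnj13 at 0.036 and Lum at 0.227. PBS libraries fell apart in Meg3, a long noncoding RNA retained in the nucleus. Meg3 lay between 49.9 and 68.1 RPKM in miR, at 50.6 in PBS replicate 7 and 58.0 in PBS replicate 11, and at 158 to 316 in the other 4 PBS libraries. Apart from Meg3 itself, results of named genes that depend on these libraries are given with and without them.

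The rows lie on the plus strand of chromosome 18 in mouse build mm9. The alpha rows start at 37089939 and end at 37347314, the beta rows run from 37424652 to 37681073, and the gamma rows from 37821599 to 38001526. Each alpha row ends within the same 3 constant exons (2860 bases) and each gamma row within its own common 3 (2119 bases). A row of 5206 to 5422 bases in alpha or 4480 to 5079 bases in gamma therefore consists of a first exon peculiar to the gene and of sequence that every row of its cluster holds. The 22 beta rows are single exons of 2319 to 5270 bases.

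This structure was visible in the levels. The alpha rows had mean levels between 15.5 and 19.5 RPKM, a 1.25-fold range, and the gamma rows between 69.6 and 84.2 RPKM, a 1.21-fold range. The beta rows ranged from 0.479 RPKM in Pcdhb1 to 3.23 RPKM in Pcdhb17, a 6.73-fold range with a median of 1.52 RPKM. Rows of the alpha cluster moved up and down together: in 10 of 12 libraries all 14 lay on the same side of their own medians over libraries. The same was so for all 22 gamma rows in 9 of 12 libraries and for the beta rows in 0 of 12. An alpha or gamma row as deposited is thus almost the same measurement repeated, and the 36 rows of these clusters are not 36 separate observations.

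**Figure D1:**
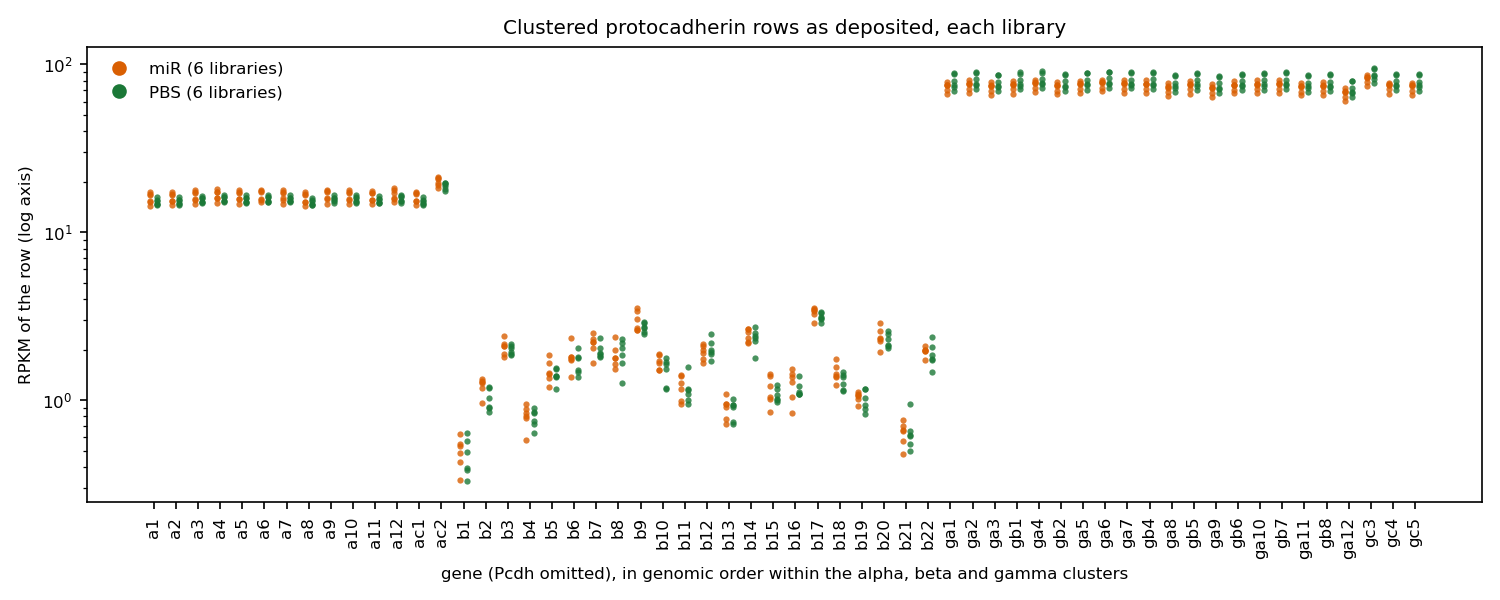
Deposited level of each clustered protocadherin row in every library (RPKM, log axis), with genes in genomic order and miR and PBS libraries in separate colours. The alpha rows sit in a band at 15.5 to 19.5 RPKM and the gamma rows in a band at 69.6 to 84.2 RPKM (means over the 12 libraries), while beta rows differ 6.73-fold from each other.

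The common reads were separated from those of the first exons by subtraction. RPKM multiplied by row length gives the row's reads in RPM (reads scaled to library size but not to length), and reads of the constant exons cancel between 2 rows of a cluster if each such read was counted in every row. How the authors counted these reads is not given in the sources used, and the first-exon levels rest on this assumption. What a row holds beyond the lowest row of its cluster, divided by the length of its first exon, is called here its first-exon level. It is a lower limit, because the lowest row's own first-exon reads are unknown and cannot be below 0. The lowest row in the mean was Pcdha8 in alpha (lowest in 11 of 12 libraries) and Pcdhga1 in gamma (10 of 12), and both have a first-exon level of 0 by construction. An error of 10 bases in a row's length would move a first-exon level by 0.067 RPKM in alpha and 0.307 RPKM in gamma, so gamma values below that size are not distinguishable from 0.

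Rows of ordinary genes differed little in their reads. Ordinary alpha rows held 81.4 to 86.6 RPM, and no more than 5.94% of any of them lay beyond the lowest row. Ordinary gamma rows held 347 to 363 RPM, with at most 4.56% beyond the lowest. The share of a row that came from the gene's own exon is larger than this by whatever the lowest row's first exon holds, which is unknown. If all reads of the lowest row came from the constant exons, these exons would stand at 28.5 RPKM in alpha and 164 RPKM in gamma, which are upper limits. The first-exon levels of the 14 alpha genes summed to 23.2 RPKM (18.8 to 26.8 over libraries) and those of the 22 gamma genes to 79.5 RPKM (63.7 to 90.5). A further row that starts in the alpha cluster and ends in the gamma cluster, outside the symbol rule, stood at 32.3 ± 1.37 RPKM in miR and 32.8 ± 1.00 in PBS (SD, n = 6 each).

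C-type genes gave the highest first-exon levels of both clusters. Pcdhac2, an alpha isoform known for the spacing of serotonergic axons, had a first-exon level of 9.44 ± 0.926 RPKM (SD, n = 12, range 7.35 to 10.4) and was the highest of the alpha cluster in 12 of 12 libraries. The next was Pcdha4, at 2.09 ± 0.253 RPKM (1.73 to 2.43). The ranges of these 2 genes did not overlap. Pcdhac1, the other alpha C-type gene, was among the lowest of its cluster at 0.565 ± 0.118 RPKM (0.292 to 0.683). It exceeded Pcdha1 (0.119 RPKM) in 12 of 12 libraries, and it was lower than the gene above it in the order, Pcdha5 (0.835 RPKM), in 10 of 12. The 2 alpha C-type genes therefore stood at opposite ends of the alpha order.

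The gamma C-type genes also differed among themselves. Pcdhgc3 had 18.6 ± 1.81 RPKM at its first exon (SD, n = 12, range 16.0 to 21.9). Pcdhgc4, an isoform known to be needed for the survival of neurons, had 13.1 ± 0.901 RPKM (11.2 to 14.3). These were the top genes of the gamma cluster in 12 of 12 libraries, Pcdhgc3 first each time, and their ranges did not overlap. Pcdhgc5 stood at 3.86 ± 0.435 RPKM (3.07 to 4.60), inside the range of the ordinary gamma genes. In the deposited row levels this order is partly hidden: Pcdhgc4 was 12th of 22 by row RPKM, at 76.6, because its row is long and the common reads are spread over more bases.

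Among ordinary alpha genes the median first-exon level was 1.04 RPKM over 12 genes, including the reference at 0. Pcdha4 was followed by Pcdha9 at 1.93, Pcdha12 at 1.68, Pcdha6 at 1.42, Pcdha7 at 1.09, Pcdha10 at 1.07 and Pcdha2 at 1.01 RPKM. Pcdha3 had 0.986 RPKM, Pcdha11 0.951 and Pcdha5 0.835. Below Pcdhac2 the order was loose: of the 13 pairs of neighbours in the whole alpha order, 2 kept their order in all 12 libraries, Pcdhac2 over Pcdha4 and Pcdhac1 over Pcdha1. All these values rest on at least 1807 reads per row and library, of which the first-exon part is a small remainder.

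Among the 19 ordinary gamma genes the median first-exon level was 2.23 RPKM. Pcdhga7 led at 6.52 ± 0.728 RPKM (SD, n = 12, range 5.08 to 7.32), followed by Pcdhga6 at 4.82 ± 0.751 and Pcdhgb6 at 4.41 ± 0.767. Pcdhga4 had 4.10 RPKM and Pcdhga3 3.01. Gamma A and gamma B genes were interleaved in this order. Between 2 and 3 RPKM lay Pcdhga11, Pcdhga2, Pcdhgb7, Pcdhga8, Pcdhga12, Pcdhga5 and Pcdhgb2 (2.54 down to 2.07 RPKM), and neighbours among these exchanged places between libraries. Pcdhga10 had 1.49 RPKM, Pcdhgb5 0.917, Pcdhgb8 0.744, Pcdhga9 0.737, Pcdhgb4 0.549 and Pcdhgb1 0.311. Of 21 neighbouring pairs in the gamma order, 4 held in 12 of 12 libraries: Pcdhgc3 over Pcdhgc4, Pcdhgc4 over Pcdhga7, Pcdhga7 over Pcdhga6, and Pcdhgc5 over Pcdhga3.

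**Figure D2:**
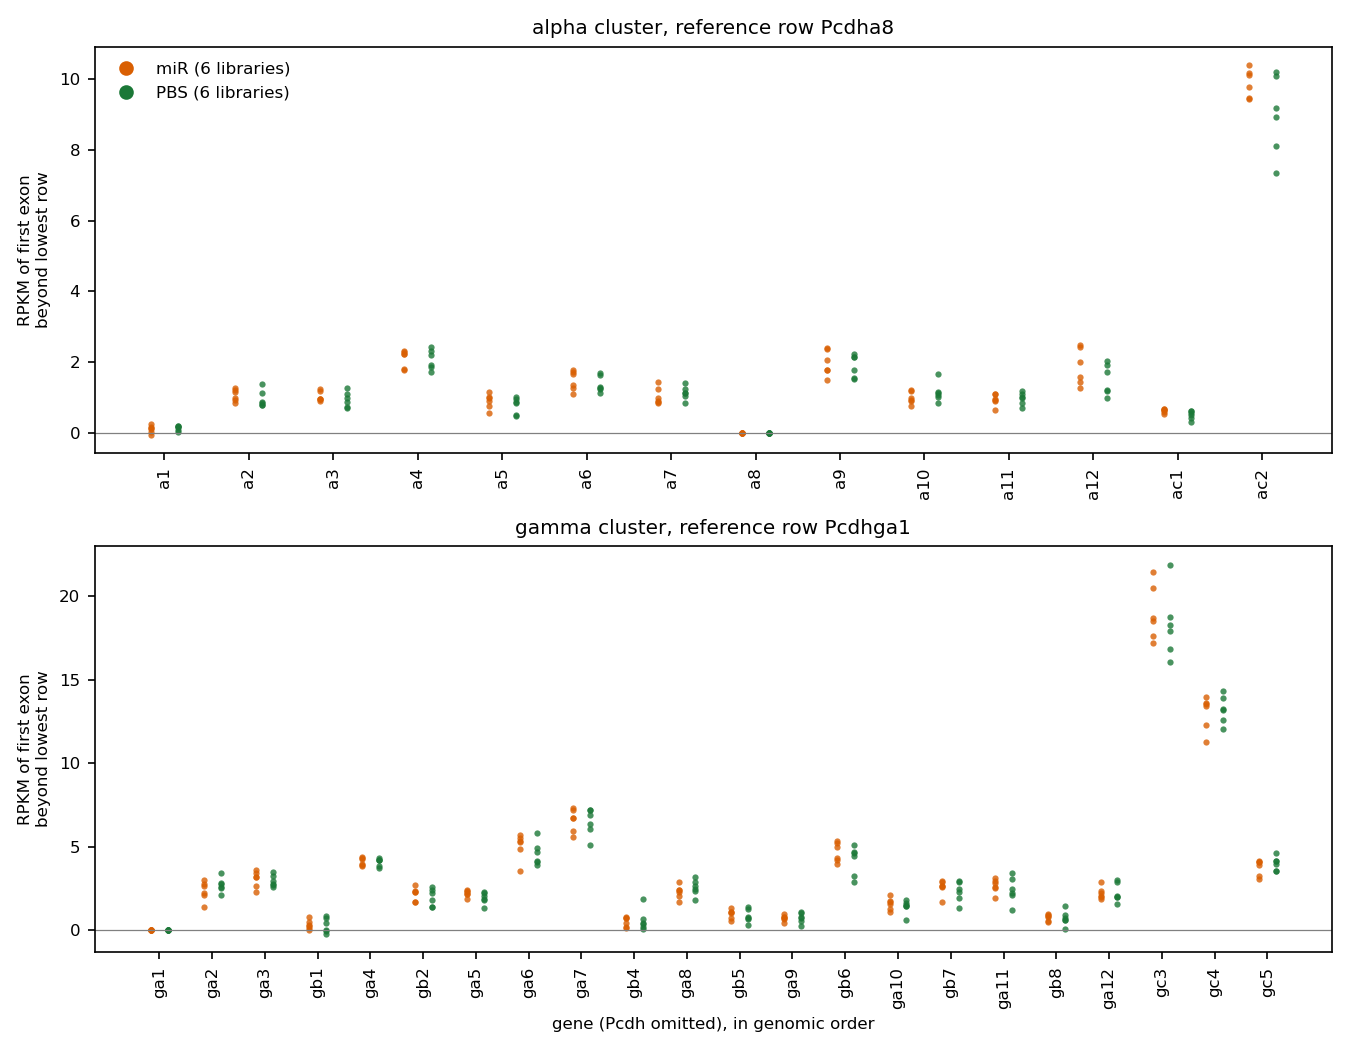
First-exon level of each alpha gene (upper panel) and gamma gene (lower panel) in every library, in RPKM beyond the lowest row of the cluster (Pcdha8 or Pcdhga1, at 0 by construction). Pcdhac2 (mean 9.44 RPKM) stands above all other alpha genes, and Pcdhgc3 (18.6) and Pcdhgc4 (13.1) above all other gamma genes, in 12 of 12 libraries.

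Beta genes need no subtraction, although near-identical stretches between beta paralogs make single values uncertain wherever a read could be placed in several of them. Pcdhb17 was the highest at 3.23 RPKM. Its levels were 3.46, 3.25, 3.54, 3.40, 3.47 and 2.88 RPKM in miR and 3.11, 3.03, 3.31, 2.87, 3.09 and 3.33 in PBS, so the groups overlapped. Pcdhb9 followed at 2.84 RPKM (2.46 to 3.52 over the 12 libraries), then Pcdhb14 at 2.38, Pcdhb20 at 2.33, Pcdhb7 at 2.07 and Pcdhb3 at 2.04. These were the 6 beta genes at or above 2 RPKM. A further 12 lay between 1 and 2 RPKM: Pcdhb12 (1.98), Pcdhb22 (1.92), Pcdhb8 (1.87), Pcdhb6 (1.73), Pcdhb10 (1.59), Pcdhb5 (1.45), Pcdhb18 (1.38), Pcdhb16 (1.20), Pcdhb11 (1.17), Pcdhb15 (1.12), Pcdhb2 (1.11) and Pcdhb19 (1.02). The 4 genes below 1 RPKM were Pcdhb13 at 0.888, Pcdhb4 at 0.793, Pcdhb21 at 0.641 and Pcdhb1 at 0.479. Pcdhb1 had 0.549, 0.334, 0.482, 0.535, 0.427 and 0.630 RPKM in the miR libraries and 0.632, 0.328, 0.493, 0.380, 0.570 and 0.393 in the PBS libraries, which is a mean of 36.4 reads per library. None of the 21 neighbouring beta pairs kept its order in all 12 libraries, and 6 did so in 11 of 12, among them Pcdhb17 over Pcdhb9 and Pcdhb21 over Pcdhb1. Over the 22 genes the order was nearly the same in both groups (Spearman's rho of mean levels 0.986, across genes and as a description).

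Place in the cluster and level went together weakly or not at all. Spearman's rho between genomic order and level was 0.12 for the 22 beta rows, 0.25 for the first-exon levels of the 12 ordinary alpha genes and 0.025 for the 19 ordinary gamma genes. These are descriptions across genes that share libraries and, in alpha and gamma, a common reference row.

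The spread between animals was near or below that of other genes of like level. Within groups, the SD of log2(RPKM + 0.5) had a median of 0.083 over alpha rows (0.075 to 0.087), beside a median of 0.113 over the 2892 genes at 10 to 20 RPKM. For gamma rows the median was 0.113 (0.101 to 0.115), beside 0.109 over the 704 genes at 50 to 100 RPKM. The 18 beta genes at or above 1 RPKM in the mean had a median of 0.140, beside 0.159 over the 4114 genes at 1 to 5 RPKM. The beta genes differed in this respect, from 0.084 in Pcdhb17 to 0.179 in Pcdhb6 and 0.213 in Pcdhb8. Pcdhb8 spanned 1.53 to 2.37 RPKM in miR and 1.27 to 2.32 in PBS, so its animals differed within both groups more than the groups did from each other. Counting error is part of this spread: over the 22 beta genes the median coefficient of variation within groups was 13.0%, where 8.20% is expected from the number of reads alone. The ratio of observed to counting variance had a median of 2.63 and ran from 1.38 in Pcdhb17 to 5.35 in Pcdhb16.

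The comparison of miR with PBS asks whether the early mimics left a difference in these genes in the adult PVN. With limma on log2(RPKM + 0.5), 0 of the 54 members at or above 1 RPKM in the mean passed an adjusted p of 0.05, and 0% of the 13273 genes tested did. The members not tested were Pcdhb1, Pcdhb4, Pcdhb13 and Pcdhb21. At an unadjusted p below 0.05 there was 1 member, Pcdhb2, higher in miR, against a background of 20.2% of all genes (9.12% higher and 11.1% lower). The groups did not overlap in 0 members, against 0.482% of all genes. The smallest adjusted p of any member was 0.242.

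The 3 clusters nevertheless leaned different ways. All 14 alpha rows were higher in miR in their mean, by 0.059 to 0.085 on the log2 scale (median 0.069, adjusted p 0.327 to 0.526). All 22 gamma rows were lower, with log2 differences of -0.10 to -0.082 (median -0.097, adjusted p 0.363 to 0.425). Of the 18 beta genes tested, 16 were higher and 2 lower (median 0.059, range -0.059 to 0.19, adjusted p 0.242 to 0.939). Over all genes tested the median was 0.0098, with 7015 higher and 6258 lower. Agreement in sign within alpha or within gamma follows from the common reads and adds no evidence. With each library corrected for its trend with transcript GC content, the beta median was -0.026 (7 higher, 11 lower) and the alpha median 0.0091 (12 higher, 2 lower), while all 22 gamma rows were still lower.

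**Figure D3:**
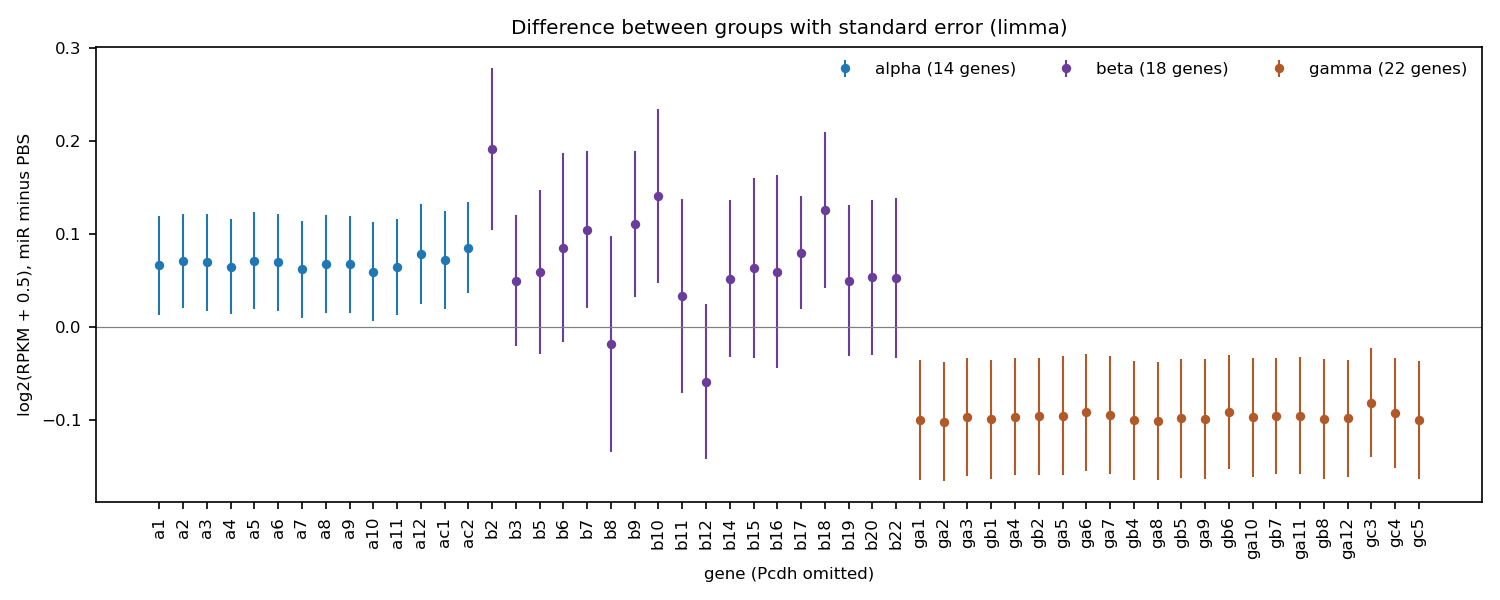
Difference between groups for the 54 tested genes, as log2(RPKM + 0.5) in miR minus PBS from limma, with bars of 1 standard error. Alpha rows lie at 0.059 to 0.085, gamma rows at -0.10 to -0.082 and beta genes between -0.059 and 0.19, and no gene passed an adjusted p of 0.05.

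In the gamma rows the highest levels were in PBS libraries. The median over the 22 gamma rows was 76.6, 71.2, 79.6, 75.6, 67.1 and 76.0 RPKM in miR replicates 1 to 6 and 75.9, 88.8, 70.8, 87.7, 74.7 and 80.3 RPKM in PBS replicates 7 to 12. PBS replicates 8, 10 and 12 were above every miR library, replicate 12 only just. PBS replicates 7, 9 and 11 lay within the miR range, and the group means were 74.3 ± 4.46 and 79.7 ± 7.30 RPKM (SD, n = 6 each). Without PBS replicates 8, 9, 10 and 12, the libraries of high Meg3, the median log2 difference of gamma rows was -0.020, and without PBS replicates 7 and 11 it was -0.14. Of the libraries with high Meg3, PBS replicates 8, 10 and 12 had gamma medians above every miR library, but PBS replicate 9 did not. PBS replicate 9, with the highest Meg3 level, had the lowest gamma median of the PBS group, and without it the median log2 difference was -0.13. Without PBS replicate 8 it was -0.065 and without PBS replicate 10 -0.069. With a covariate of nuclear RNAs, Meg3 among them, the median log2 difference of gamma rows was -0.059. The part of nuclear RNA in the gamma levels was not tested. Alpha medians were 15.8, 14.7, 17.8, 17.3, 17.1 and 15.6 RPKM in miR and 15.1, 15.2, 16.0, 16.6, 16.0 and 15.0 in PBS, with 3 miR libraries above all PBS libraries and 1 below them (16.4 ± 1.20 against 15.6 ± 0.643).

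Single row levels of the C-type genes showed the pattern of their clusters. Pcdhac2 stood at 19.6, 18.5, 21.2, 21.1, 20.9 and 19.1 RPKM in miR and at 18.9, 18.1, 19.3, 19.8, 19.7 and 17.6 in PBS. Its log2 difference was 0.085 (SE 0.049), with a limma adjusted p of 0.327. Of the 6 miR libraries 5 were above the PBS median, and the groups overlapped. Pcdhgc3 had 84.7, 78.2, 86.0, 84.3, 73.9 and 83.3 RPKM in miR and 85.0, 95.6, 77.5, 93.8, 81.7 and 86.3 in PBS, a log2 difference of -0.082 (limma adjusted p 0.425). Pcdhac1 differed by 0.072 (limma adjusted p 0.434), Pcdhgc4 by -0.093 (0.374) and Pcdhgc5 by -0.10 (0.371). Over the C-type rows, the alpha pair was higher and the gamma trio lower in the mean, as all other rows of their clusters were.

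The first-exon levels of the C-type genes were compared by 2-sided exact permutation tests over the 924 labelings, a comparison added after the data had been seen. There were 5 such comparisons, and the smallest p each could give is 0.0022. The first-exon level of Pcdhac2 was 10.4, 9.77, 9.45, 10.2, 10.1 and 9.48 RPKM in miR and 10.1, 8.12, 9.20, 8.93, 10.2 and 7.35 RPKM in PBS. All 6 miR libraries were above the PBS median, but PBS replicates 7 and 11 lay among them. The means were 9.90 ± 0.389 and 8.98 ± 1.11 RPKM (SD, n = 6 each, difference 0.914 RPKM, exact p = 0.0887).

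Pcdhac1 had a similar arrangement at a much lower level. Its first-exon level was 0.522, 0.656, 0.649, 0.683, 0.674 and 0.575 RPKM in miR and 0.620, 0.501, 0.292, 0.564, 0.628 and 0.411 in PBS. PBS replicates 7 and 11 were again within the miR range, and so was PBS replicate 10, a library of high Meg3. The means were 0.627 ± 0.0639 and 0.503 ± 0.131 RPKM (SD, n = 6 each, difference 0.124 RPKM, exact p = 0.0563). Neither alpha C-type gene passed 0.05.

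These alpha differences followed the split among the PBS libraries. Without PBS replicates 7 and 11 the difference was 1.50 RPKM for Pcdhac2 (exact p = 0.0048, the smallest that 210 labelings can give) and 0.185 RPKM for Pcdhac1 (exact p = 0.0143). With those replicates as the only PBS libraries it was -0.253 RPKM (exact p = 0.357) and 0.0028 RPKM (exact p = 0.964). The highest PBS values of both genes were in replicates 7 and 11. Leaving these out, together or singly, could therefore only enlarge the differences, and the p-values without them are descriptions. PBS replicates 7 and 11 had been set apart by their Meg3 level, which lay in the range of miR. The part of that difference between libraries in the Pcdhac2 and Pcdhac1 values was not tested. The split was not limited to C-type genes. First-exon levels of Pcdha2, Pcdha4, Pcdha5, Pcdha7 and Pcdha11 were also higher in PBS replicates 7 and 11 than in every other PBS library. For Pcdha2 they were 1.12 and 1.38 RPKM, against 0.786 to 0.861 RPKM. Apart from the reference Pcdha8, the other ordinary alpha genes lacked this order. The sum over alpha genes, Pcdhac2 included, was also highest among PBS libraries in replicates 7 and 11. All these levels subtract the same Pcdha8 row of each library, so these genes are not separate observations of the split. Leaving out PBS replicate 7 or 11 alone gave differences of 1.14 and 1.16 RPKM for Pcdhac2 (exact p = 0.0325 and 0.0238). For Pcdhac1 the differences were 0.148 and 0.149 RPKM (exact p = 0.0303 and 0.0281), and without miR replicate 1 the difference was 0.145 RPKM (exact p = 0.0325). Other libraries moved the values the opposite way. Without PBS replicate 12 the Pcdhac2 difference fell to 0.588 RPKM (exact p = 0.165), and without PBS replicate 9 the Pcdhac1 difference fell to 0.0819 RPKM (exact p = 0.110). Over all single libraries left out, the exact p of Pcdhac2 ran from 0.0238 to 0.165 and that of Pcdhac1 from 0.0281 to 0.115.

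No difference past the spread was found in the gamma C-type genes. Pcdhgc3 had first-exon levels of 20.5, 18.5, 17.2, 21.5, 17.6 and 18.7 RPKM in miR and 21.9, 18.2, 17.9, 16.8, 18.7 and 16.0 in PBS (means 19.0 ± 1.66 and 18.3 ± 2.03, SD, n = 6 each, exact p = 0.504). Its mean difference of 0.734 RPKM had no stable size or direction: it ran from 0.241 without miR replicate 4 to 1.46 without PBS replicate 7, and was -1.30 without PBS replicates 8, 9, 10 and 12. Pcdhgc4 had 13.0 ± 1.03 and 13.2 ± 0.833 RPKM (SD, n = 6 each, exact p = 0.716), and Pcdhgc5 3.74 ± 0.464 and 3.99 ± 0.403 (SD, n = 6 each, exact p = 0.333). In each of the 3 genes the groups overlapped.

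**Figure D4:**
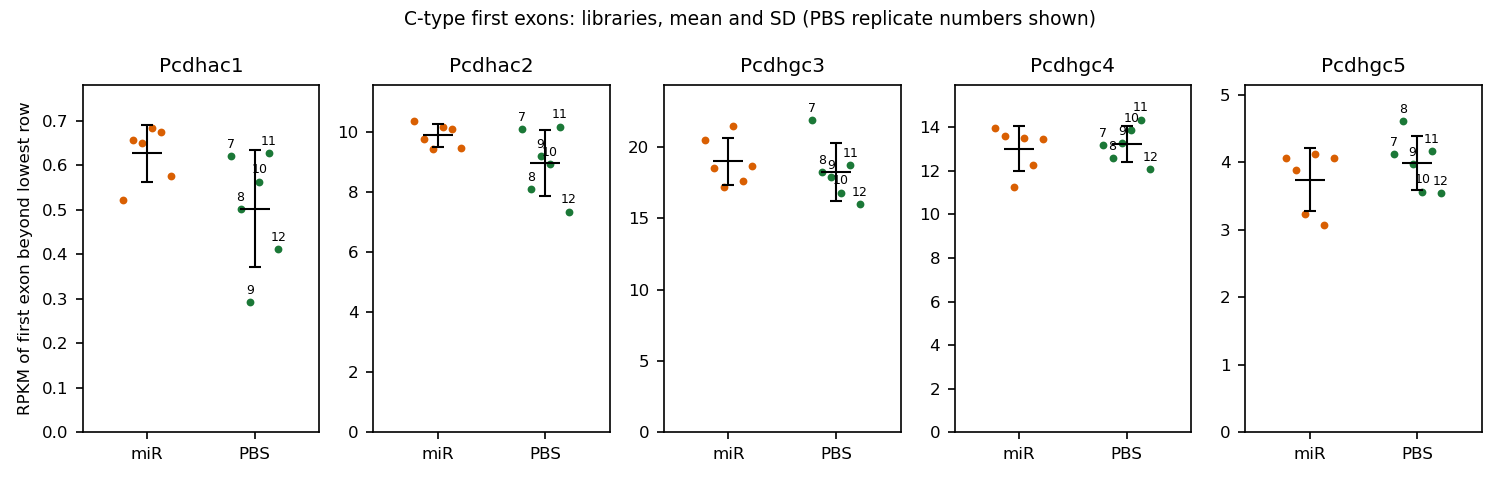
First-exon levels (RPKM beyond the lowest row of the cluster, axes from 0) of the 5 C-type genes in each library, with the mean and SD of each group and the replicate numbers of the PBS libraries. For Pcdhac1 and Pcdhac2, PBS replicates 7 and 11 lie within the range of the miR libraries while PBS replicates 8, 9 and 12 lie below it. PBS replicate 10 lies within it for Pcdhac1 and below it for Pcdhac2.

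Of the beta genes Pcdhb2 came closest to a difference. It stood at 1.30, 1.19, 0.961, 1.27, 1.33 and 1.27 RPKM in miR and at 1.17, 0.902, 1.19, 0.905, 1.03 and 0.848 RPKM in PBS. Of the miR libraries, 4 were above every PBS library, replicate 2 lay beside the highest PBS libraries and replicate 3 inside the PBS range. The means were 1.22 ± 0.136 and 1.01 ± 0.147 RPKM (SD, n = 6 each), a log2 difference of 0.19 (SE 0.088) whose limma p was 0.0461 before and 0.242 after adjustment. With limma's library weights the adjusted p was 0.0210, but 22.8% of all genes passed under those weights. They also put 25 members at an unadjusted p below 0.05, where 38.2% of all genes lay. Of these members 22 were lower, mainly gamma rows, which are not separate observations. Pcdhb10 (0.14, adjusted p 0.391), Pcdhb18 (0.13, 0.393) and Pcdhb9 (0.11, 0.419) followed, each with overlapping groups. Pcdhb8 and Pcdhb12 were the 2 lower in the mean, at log2 differences of -0.019 (adjusted p 0.939) and -0.059 (0.695). Summed over all 22 beta genes, the rows held 121 ± 7.03 RPM in miR and 114 ± 7.35 in PBS (SD, n = 6 each).

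Ordinary gamma genes of smallest p in the lower direction were Pcdhga8, Pcdhga2, Pcdhgb4 and Pcdhga12, each at a log2 difference of -0.10 or -0.099 with adjusted p of 0.363 to 0.371. They are rows of the common gamma reads and repeat the difference described above. The ordinary alpha rows Pcdha4, Pcdha8 and Pcdha12 differed by 0.065 (adjusted p 0.472), 0.068 (0.464) and 0.079 (0.406).

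Genes known to set protocadherin promoter choice were taken from a list of insulator, cohesin, methylation and silencing factors. Of 23 tested, 12 were higher and 11 lower in miR in their means (median 0.040), and 0 passed after adjustment. At an unadjusted p below 0.05 there were 4 higher and 5 lower, beside 9.12% higher and 11.1% lower of all genes. Ctcf, the insulator protein that loops these promoters to their enhancers, stood at 15.7 ± 0.797 RPKM in miR and 14.7 ± 0.854 in PBS (SD, n = 6 each, limma adjusted p 0.278). The cohesin subunit Rad21 had 39.9 ± 2.32 and 36.4 ± 3.53 RPKM (limma adjusted p 0.249). Smchd1, a chromatin protein that represses the clusters, had 7.10 ± 0.369 and 6.50 ± 0.607 RPKM (limma adjusted p 0.279). The methyltransferase Dnmt3b was below the filter on low levels, at 0.121 and 0.138 RPKM. Without PBS replicates 7 and 11 the limma adjusted p of Ctcf, Rad21 and Smchd1 were 0.042, 0.016 and 0.039. In that setting 23.4% of all genes passed, and these p-values are descriptions. With those replicates as the only PBS libraries the log2 differences were -0.00034, -0.021 and -0.00018, none past the threshold.

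The smallest p of this list belonged to cohesin genes of opposite direction. Mau2, part of the cohesin loader, had 10.3 ± 0.548 RPKM in miR and 12.2 ± 1.25 in PBS (SD, n = 6 each), a log2 difference of -0.23 with a limma adjusted p of 0.174. Stag2, a cohesin subunit, had 17.3 ± 1.13 and 14.9 ± 1.80 RPKM, a difference of 0.21 with a limma adjusted p of 0.177. Without PBS replicates 7 and 11 both passed the threshold, with limma adjusted p of 0.0029 and 0.0023, as did 23.4% of all genes. The lowest PBS values of Mau2 and the highest of Stag2 were in those replicates, so leaving them out could only enlarge the differences. These p-values are therefore descriptions. Of the 54 clustered protocadherins 0 passed, but their alpha and gamma rows are not separate observations. With PBS replicates 7 and 11 as the only PBS libraries the log2 differences were -0.072 for Mau2 and 0.0087 for Stag2, neither past the threshold. Without PBS replicate 7 alone 6.85% of all genes passed, and without PBS replicate 11 alone 3.23%. Here too 0 of the 54 members passed, with the same limit on their alpha and gamma rows.

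A list of signalling partners and proteases of the clustered protocadherins, which also held the transcription factor Tbr1, gave 14 higher and 9 lower of 23 tested (median 0.038). At an unadjusted p below 0.05 were 4 and 1 of them, beside 9.12% and 11.1% of all genes, and 0 passed after adjustment. Nckap1, a subunit of the WAVE complex that the cytoplasmic tails bind, stood at 109 ± 4.34 RPKM in miR and 94.0 ± 8.57 in PBS (SD, n = 6 each, log2 difference 0.21, limma adjusted p 0.174). Adam10, the protease that sheds protocadherin extracellular domains, had 19.9 ± 1.18 and 17.6 ± 1.78 RPKM (log2 difference 0.18, limma adjusted p 0.185). Without PBS replicates 7 and 11 their limma adjusted p were 0.0022 and 0.0042, where 23.4% of all genes passed. The highest PBS values of both genes were in those replicates, so leaving them out could only enlarge the differences. These p-values are descriptions. With those replicates as the only PBS libraries the log2 differences were 0.063 for Nckap1 and 0.0069 for Adam10, neither past the threshold.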

How the data were processed

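Micropunches of 1.0 mm from 2 slices of 300 µm were sequenced as stranded poly-A single-end libraries on 2 lanes, per the labels' protocols. The authors deposited RPKM values for RefSeq transcripts. The authors' processing notes, as GEO lists them, name mm9 and edgeR without their role. Which aligner and counter made the deposited values is not given in the sources used. Of 913 rows without a symbol, 868 were named by accession, and 0 members came from these. The highest row stood for each gene.

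Depth was read from the steps between low RPKM values of intronless olfactory receptor genes. All 275 such values lay within 2% of sums of steps, a weak check because they also set the steps. Row lengths were GENCODE M21 transcript lengths matched by accession (58 of 58), less the difference in genomic span, with no coordinate converted. No sequence is printed.

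The 12 libraries were compared with limma 3.58.1 in R 4.3.3 on log2(RPKM + 0.5), which understates changes of low genes, for genes at or above 1 RPKM in the mean (variance trend, 2-sided, Benjamini-Hochberg). The scripts were tested on simulated data. Python 3.11.15, pandas 2.3.3, numpy 2.4.6, scipy 1.17.1 and matplotlib 3.10.9 were used. First-exon levels assume that each read of a common exon was counted in every row that holds it. Because the files pair no animals with litters, p-values measure the spread between these 12 samples.

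Members, gene lists and tests were chosen with earlier results of these data known. Named members are the C-type genes, the 2 highest and the lowest row of alpha, beta, gamma A and gamma B, the 4 of smallest p in each direction, and the 2 of largest and 1 of smallest spread. Other members were named after their values were seen, to account for all. For each list the 2 genes of smallest p are named, and always Taf7, Ctcf, Rad21, Smchd1, Dnmt3b and Meg3. Tried besides were a pseudocount of 0.1 or of 1 RPKM, a filter at 5 RPKM or none, median and quantile scaling, no variance trend, library weights, an adjusted p of 0.1, single transcript rows, a covariate of nuclear RNAs, a GC correction in 20 bins (98.0% of tested genes had a value), each library left out, and the 2 sets of PBS libraries left out.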

Additional observations from a re-analysis of the deposited data

Results flagged for a closer look

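In miR replicate 5, Nckap1 stood at 117 RPKM, far above the other 5 miR libraries for the width of that group. Meg3 stood at 68.1 RPKM in miR replicate 6, again far above the other 5. These were 2 of 88 groups of 6 libraries examined over the named genes and C-type first exons, and chance marks about 1 in 20 groups. None of the flagged values belonged to a clustered protocadherin.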

How the results depend on the processing

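The count of clustered protocadherins past the adjusted threshold was 0 in the main comparison and in every alternative except library weights, which called 1, Pcdhb2. The count at an unadjusted p below 0.05 was 1 in the main comparison, 0 with a filter at 5 RPKM, with the GC correction and without PBS replicates 8, 9, 10 and 12, 7 with quantile normalization (1 higher and 6 lower, 21.7% of all genes) and 25 with library weights (3 higher and 22 lower, 38.2%). With single libraries left out it ran from 0 to 18, and the 18 came without PBS replicate 9 (1 higher and 17 lower, 15.9%). The cause was not tested. With quantile normalization, with library weights and without PBS replicate 9, 0 alpha rows and at most 2 beta genes were lower in the mean. The lower counts were therefore mainly gamma rows, which share their common reads and are not separate observations. The beta median ran from -0.026 to 0.11 and the gamma median from -0.15 to -0.020 over the alternatives. By level, Pcdhgc4 ranked 12 among gamma rows, 2 by reads beyond the lowest row and 13 in PBS alone. Pcdhb8 turned from -0.019 to 0.027 with quantile normalization and 0.046 without PBS replicates 7 and 11, and ran from -0.10 to 0.032 with single libraries left out. The nuclear RNA covariate turned Pcdhb6 to -0.058 and Rad21 to -0.034. Meg3 went to 0.0054, which was largely set in advance because Meg3 is part of that covariate. The GC correction turned Pcdhac1 to -0.0010, Pcdhb6 to -0.0034 and Pcdhb17 to -0.015. Without PBS replicates 8, 9, 10 and 12, Pcdhb6 was at -0.078, Rad21 at -0.021, Hdac3 at 0.021, Ctcf at -0.00034 and Smchd1 at -0.00018. Meg3 was then at 0.023, also largely set in advance because those libraries were set apart by their Meg3 level. No paired analysis was possible because the groups share no replicate numbers. Depth limits the lowest beta genes, with a mean of 36.4 reads per library in Pcdhb1, and low first-exon levels, whose counting error was not computed.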

Other observations

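Of 13 protocadherins outside the clusters, 12 reached 1 RPKM in the mean. Of these 12, 7 were higher and 5 lower in miR in their means (median log2 difference 0.095). At an unadjusted p below 0.05 was 1 of them, beside 20.2% of all genes, and 0 passed after adjustment. Pcdh11x, an X-linked member, stood at 8.57 ± 1.17 RPKM in miR and 6.96 ± 1.39 in PBS (SD, n = 6 each, log2 difference 0.29, limma adjusted p 0.209). Pcdh9 had 25.4 ± 2.59 and 22.5 ± 2.66 RPKM (log2 difference 0.17, limma adjusted p 0.264). Of 15 classical cadherins tested, 11 were higher and 4 lower (median 0.092). At an unadjusted p below 0.05 was 1 each way, beside 9.12% higher and 11.1% lower of all genes, and 0 passed after adjustment. Cdh18, expressed in neurons, had 14.6 ± 1.03 and 12.7 ± 0.969 RPKM (log2 difference 0.20, limma adjusted p 0.174). Cdh5, the endothelial cadherin, had 1.73 ± 0.273 and 2.17 ± 0.209 RPKM (log2 difference -0.26, limma adjusted p 0.174), beside summed endothelial markers, Cdh5 among them, of 19.2 to 27.6 RPKM in miR and 23.5 to 30.7 in PBS. The part of the number of endothelial cells in this value was not tested. Without PBS replicates 7 and 11 the limma adjusted p of Pcdh11x, Pcdh9, Cdh18 and Cdh5 were 0.012, 0.049, 0.023 and 0.038. In that setting 23.4% of all genes passed, and these p-values are descriptions. With those replicates as the only PBS libraries the log2 differences were 0.019, 0.0070, 0.12 and -0.18, none past the threshold.

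Genes that lie between or beside the clusters went both ways. Of 13 tested, 8 were higher and 5 lower in miR in their means (median 0.027), and 0 passed after adjustment. At an unadjusted p below 0.05 there were 1 higher and 4 lower, beside 9.12% higher and 11.1% lower of all genes. Hdac3 was counted both here and in the list of promoter choice. Taf7, which lies between the beta and gamma clusters and encodes a subunit of the general transcription factor TFIID, had 4.42 ± 0.602 and 3.80 ± 0.266 RPKM (SD, n = 6 each, log2 difference 0.19, limma adjusted p 0.219). Hars2, the mitochondrial histidyl-tRNA synthetase, had 5.53 ± 0.252 and 6.56 ± 0.753 RPKM (log2 difference -0.22, limma adjusted p 0.174). Hdac3, a histone deacetylase, had means of 33.9 RPKM in miR (31.7 to 36.8 over its libraries) and 39.3 in PBS (32.9 to 43.3) (log2 difference -0.21, limma adjusted p 0.187). Without PBS replicates 7 and 11 the limma adjusted p of Hars2 and Hdac3 were 0.0043 and 0.0015, where 23.4% of all genes passed. Leaving those replicates out enlarged both log2 differences, to -0.31 and -0.32, so these p-values are descriptions. With those replicates as the only PBS libraries the log2 differences were -0.055 and 0.021, neither past the threshold.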
